A study of Mus musculus with 22 samples.

Results

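Cadherins and protocadherins are calcium-dependent adhesion proteins of the cell surface, and the members described here were the rows of the deposited expression table whose symbols begin with Cdh and a digit, Pcdh, Celsr or Dchs, or are Fat1 to Fat4. Cdh23 and Pcdh15, which form the tip links of hair cells, were left out by that rule. It gave 63 genes of the 13812 in the table. Of these, 31 lay outside the protocadherin clusters: 2 classical type I cadherins, 10 classical type II cadherins, 3 other cadherins, 3 delta-1 and 5 delta-2 protocadherins, Pcdh20, 3 Fat genes, Dchs1 and 3 Celsr genes. The other 32 were clustered protocadherins, 2 from the alpha, 20 from the beta and 10 from the gamma cluster.

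Classical cadherins bind the same or related cadherins on a neighbouring cell through their outermost repeats and hold on to actin through catenins on the inside. Type II cadherins and delta-protocadherins are each made by subsets of neurons, and in the retina Cdh8 and Cdh9 are known for steering the axons of different cone bipolar types to separate layers of the inner plexiform layer. Clustered protocadherins are chosen in combinations by single neurons and mediate self-recognition, and the giant Fat, Dachsous and Celsr cadherins act in planar cell polarity and axon guidance.

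Rods, cones and bipolars sorted from the mouse retina were sequenced on day 7, 13 or 30 after birth (P7, P13, P30), and rod bipolars and cone bipolars at P13 alone, with 2 libraries in each of the 11 groups. The study's design text calls the bipolars ON-bipolar cells, the class that depolarises in light, and the labels give no strain, reporter line, sex or batch. The labels do not state whether a group's replicates are different animals, so p-values speak only of variation among these libraries, possibly technical. The RNA was amplified before library preparation, and in such bulk samples fewer cells of a type and less RNA per cell cannot be told apart.

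The libraries held from 14.4 to 54.4 M reads, so that 3 reads over a group's 2 libraries, the floor used below, stood for 0.0275 to 0.0766 CPM (counts scaled to a common library size). The summed levels of 5 defining markers for each type followed the labels: rod markers reached 13215 to 20672 CPM in rods, cone markers 11921 to 39421 CPM in cones, and bipolar markers 4846 to 19549 CPM in the bipolar groups. Rods had no reads of the bipolar receptor gene Grm6. Cones carried 212 to 492 CPM of bipolar markers and 3190 to 9136 CPM of rod markers, against 3.29 to 22.6 CPM of bipolar markers in rods. On a separate list of rod bipolar markers (Prkca, Car8 and Sebox) rods were the higher, at 233 to 348 CPM against 18.2 to 132 CPM in cones. Over the 63 members the 2 libraries of a group agreed least in cones at P30, with a correlation across genes of 0.31, and in rods at P13, with 0.48, and most in bipolars at P7, with 0.98.

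**Figure D1:**
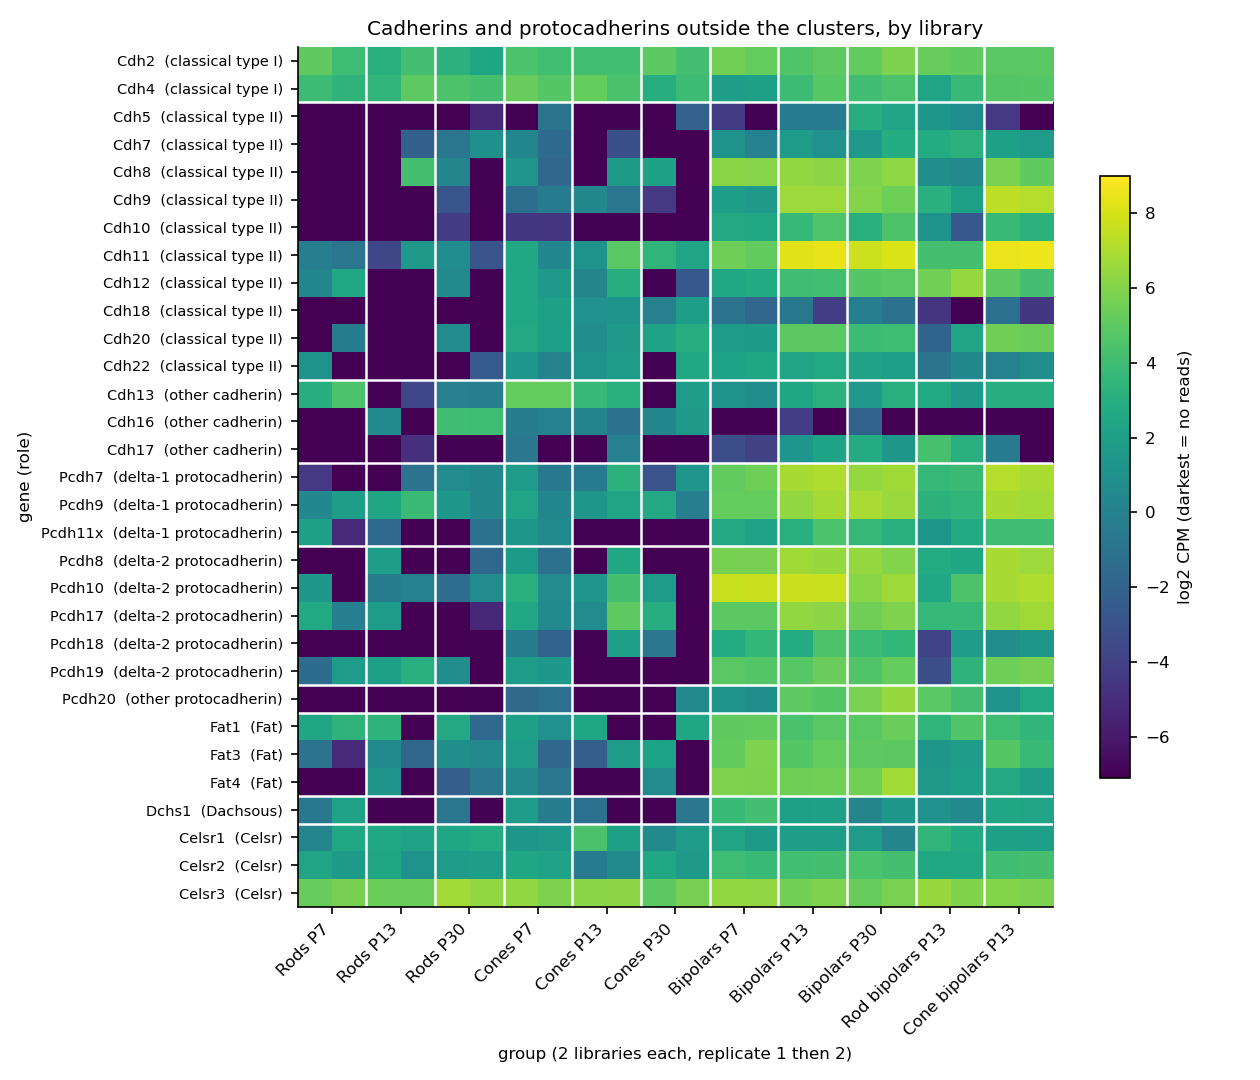
Level of the 31 members outside the clusters (rows, grouped by role) in each of the 22 libraries (columns, replicate 1 then 2 of each group), as log2 CPM from no reads (darkest) to above 8 (yellow). Most type II cadherins and delta-protocadherins are bright in the bipolar groups except rod bipolars, while Cdh2, Cdh4 and Celsr3 have reads in every library.

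Of the 31 members outside the clusters, 25 had their highest group mean in a bipolar group, 2 in rods (Cdh16 and Celsr3) and 4 in cones (Cdh4, Cdh13, Cdh18 and Celsr1). Per kilobase of exon, Cdh9 and Cdh11 were the highest of all 63 members in cone bipolars at P13, with 44.9 and 42.5 CPM per kb. In rod bipolars the highest outside the clusters was Cdh12 with 10.9 CPM per kb, below Pcdhb9, Pcdhb17 and Pcdhb20 at 28.9, 25 and 19.2. In rods at P30 Celsr3 was the highest outside the clusters, with 7.92 CPM per kb.

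The question of the first comparison was which members distinguish bipolar interneurons from photoreceptors, taken as the mean of rods and cones at the same age. A member was called when its p, adjusted over the 13405 genes tested, was under 0.05 and its log2 difference at least 1. At P7, 14 members outside the clusters were called higher in bipolars and 1 lower, when 11.6% and 11.1% of all genes tested were called higher and lower. At P13 the counts were 22 and 0 (20.6% and 12.8% of all genes), and at P30 they were 21 and 1 (22.6% and 13%). The median log2 difference of the 31 members was 3.48, 6.66 and 6.73 at the 3 ages, and 3.38, 6.28 and 6.73 with groups that had no reads set to their floor, beside 0.12, 0.18 and 0.13 over all genes. For all members together the count went from 20 to 9 and 8 without replicate 1 or 2 of bipolars at P7, and from 34 to 21 and 20 without replicate 1 or 2 at P13. Of the 20, 34 and 35 calls over all members, 7, 14 and 24 held under all 14 other settings tried, among them Cdh9, Cdh10, Pcdh7, Pcdh9 and Fat4 at each age.

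**Figure D2:**
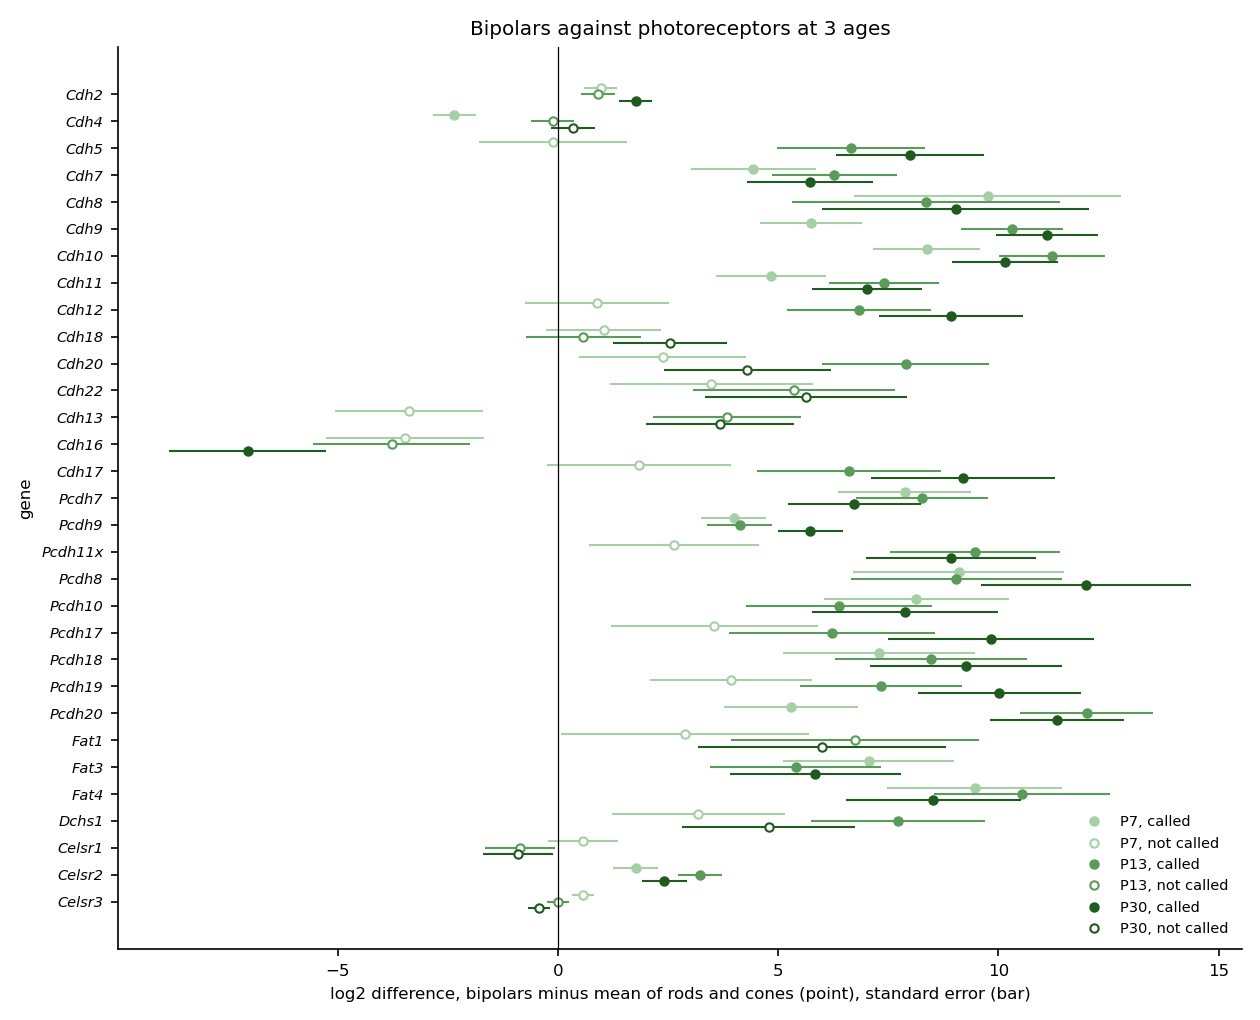
Log2 difference between bipolars and the mean of rods and cones (points) with its standard error (bars) for the 31 members outside the clusters at P7, P13 and P30; filled points were called. Nearly all filled points lie to the right of 0, and the exceptions are Cdh4 at P7 and Cdh16 at P30.

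Among the type II cadherins, 5, 8 and 7 of the 10 were called higher in bipolars at P7, P13 and P30, beside 11.6%, 20.6% and 22.6% of all genes. The counts at P13 and P30 include Cdh5, an endothelial cadherin set beside vascular markers below. Its highest group mean was 6.28 CPM, in bipolars at P30. Cdh11, also known from bone and mesenchyme as OB-cadherin, had reads in every library. It stood at 43.8 and 35.4 CPM in the 2 bipolar libraries at P7, 313 and 347 at P13, and 219 and 267 at P30. The 12 photoreceptor libraries ran from 0.0703 to 29.1 CPM with a median of 1.92, all below the bipolar libraries. Its log2 difference was 4.84 ± 1.25 (SE) at P7, 7.41 ± 1.25 at P13 and 7.02 ± 1.25 at P30, with adjusted p of 0.00837, 2.5e-04 and 3.82e-04.

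Cdh9 (chr15:16728756-16857094, GRCm38) was low in bipolars at P7, at 3.63 and 3.05 CPM, and reached 101.5 and 101.7 CPM at P13 and 65 and 44.4 at P30. Photoreceptor libraries had at most 1.28 CPM, and 6 of the 12 had no reads. The log2 difference of 10.32 ± 1.16 at P13 became 9.02 with the floor in place of rods without reads (adjusted p = 5.07e-06), and the calls at the 3 ages held under all 14 other settings tried. Cdh8 (chr8:99024471-99416471) differed from Cdh9 in time course. It was at 69.5 and 66.5 CPM in bipolars at P7, with 83.6 and 73.8 at P13 and 58.2 and 77.5 at P30. In photoreceptors the median was 0.144 CPM, but 1 rod library at P13 held 19.3 CPM, and the calls for Cdh8 at P7, P13 and P30 were each lost without replicate 1 or replicate 2 of the bipolars. They were also lost without replicate 2 of cones at P7 or P30, replicate 1 of rods or cones at P13, or replicate 2 of rods at P30, with adjusted p up to 0.125, 0.178 and 0.124 at the 3 ages.

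Cdh10 (chr15:18818947-19014236) was the type II member with the fewest photoreceptor reads, at most 0.0453 CPM in 12 libraries, against 5.71 to 23.5 CPM in the 6 bipolar libraries. Its log2 difference at P13 was 11.22 ± 1.21 (8.76 with the floor, adjusted p = 3.4e-06). Cdh20 had 3.26 and 3.16 CPM in bipolars at P7, which lay within the range of cones, and 31.0 and 30.6 CPM at P13, above every photoreceptor library. It was called at P13 only, with 7.89 ± 1.89 (6.60 with the floor, adjusted p = 0.00375), and the difference between ages was not called. Cdh12 was called at P13 and P30 and Cdh7 at each age. Cdh12 measured 5.72 and 6.56, 16.9 and 17.3, and 27.5 and 29.8 CPM in the bipolar libraries at P7, P13 and P30, and Cdh7 between 1.02 and 7.45 CPM over those 6 libraries. Cdh22 and Cdh18 were not called in this comparison, and their highest group means were 5.72 CPM in bipolars at P13 and 4.94 CPM in cones at P7.

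Cdh9, Cdh10, Cdh12 and Cdh18 are neighbours, lying within 6.75 Mb of chromosome 15 with 1 other coding gene, Acot10, among them in GENCODE M21. At P13 Cdh9 was the highest of the 4 per kilobase in cone bipolars and Cdh12 in rod bipolars, and Cdh18 had reads in all 6 cone libraries and in none of the rod libraries.

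All 8 delta-protocadherins were called higher in bipolars at P13 and at P30. Pcdh10, a delta-2 member that binds the WAVE actin regulators, had 203 and 211 CPM in bipolars at P7, 210 and 204 at P13 and 71.3 and 101.2 at P30. The highest photoreceptor library had 19.0 CPM and the median was 1.59. Pcdh8 (arcadlin, known from synapses that change with activity) ran from 51.4 to 105 CPM in the 6 bipolar libraries, and 7 of the 12 photoreceptor libraries had no reads. At P30 its log2 difference was 11.99 ± 2.39, or 10.58 with the floor for cones (adjusted p = 9.04e-04).

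Of the delta-1 members, Pcdh9 had reads in every library and the smallest errors. It stood at 36.9 and 36.8 CPM in bipolars at P7, 84.4 and 114 at P13, and 125 and 95.7 at P30, above the photoreceptor range of 0.854 to 14.9 CPM. Its log2 differences of 4.0 ± 0.74, 4.13 ± 0.74 and 5.73 ± 0.74 were called at each age, with adjusted p of 7.39e-04, 4.06e-04 and 2.03e-05, and under all 14 other settings. Pcdh7 measured 34.4 and 44.1, 119 and 133, and 86.1 and 105 CPM at the 3 ages, against at most 9.58 CPM in photoreceptors. Pcdh17 went from 30.3 and 30.6 CPM at P7 to 84.5 and 72.3 at P13 and 45 and 60.2 at P30, and 1 cone library at P13 reached 31.8 CPM.

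That cone library, replicate 2 at P13, was also the highest photoreceptor library for Cdh11, Pcdh7, Pcdh8, Pcdh10 and Pcdh18. The bipolar markers summed to 375 CPM in it and to 344 CPM in the other cone library at P13, and the cone bipolar markers to 47.2 and 15.1 CPM. Amacrine cell markers summed to 70.7 CPM in it and to 6.75 CPM in the other. Bipolar and cone bipolar markers were higher in replicate 1 of cones at P7, at 492 and 52.7 CPM. They were higher too in replicate 1 of cones at P30, at 455 and 139 CPM. The part of bipolar or amacrine RNA in these values was not tested. Pcdh19, an X-linked delta-2 member, ran from 24.8 to 39.8 CPM over the 6 bipolar libraries and Pcdh18 from 6.93 to 22.2 CPM. Per kilobase of exon at P13, Pcdh18 stood at 2.72 CPM in bipolars, 0.316 in rod bipolars, 0.414 in cone bipolars and 0.366 in cones. What set bipolars apart from both sorted bipolar classes there was not tested. Pcdh11x ran from 4.52 to 21.2 CPM.

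Pcdh20 was low in photoreceptors, with no reads in 9 of 12 libraries and at most 1.41 CPM. In bipolars it had 2.19 and 1.92 CPM at P7, 32.4 and 27.5 at P13, and 53.7 and 91.9 at P30, a gain of 35.5-fold in mean CPM from P7 to P30. The difference from photoreceptors was 12 ± 1.51 at P13 and 11.34 ± 1.51 at P30 (9.54 and 10.30 with floors, adjusted p = 1.64e-05 and 2.8e-05).

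Fat4 binds Dachsous cadherins across cell contacts, and it stood at 59.4 and 56.8 CPM in bipolars at P7, 44.2 and 48.0 at P13, and 48.6 and 107 at P30. No photoreceptor library passed 2.39 CPM, and the difference was called at each age. At P13 rod bipolars had 2.91 and 3.98 CPM and cone bipolars 6.16 and 3.61, all far under the bipolar libraries of the same age, which held 694 to 877 CPM of Müller glia markers against 87.5 to 295 CPM in the rod and cone bipolar libraries. The bipolar libraries held 173 and 167 CPM of these markers at P7, and 3987 and 6163 CPM at P30. Whether glial RNA moved Fat4 was not tested. Fat3, a regulator of neurite shape in the retina, was called at each age and ran from 27.2 to 60.4 CPM in bipolars against at most 4.64 CPM in photoreceptors. Fat1 was called in no comparison. It ran from 20.4 to 39.1 CPM in bipolars and reached 10.5 CPM in photoreceptors, and its adjusted p at P13 was 0.0676.

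Dchs1, a ligand of Fat4, had 13.7 and 18 CPM in bipolars at P7, 4.07 and 4.41 at P13, and 1.19 and 2.72 at P30. It was called higher than in photoreceptors at P13 only, with 7.72 ± 1.97, or 6.42 with the floor for rods (adjusted p = 0.00554). Celsr2 was called at each age, with 14.2 to 21.6 CPM in bipolars and 0.765 to 5.69 in photoreceptors, without overlap. Celsr3, known for guiding axon tracts, was abundant everywhere at 31.3 to 108 CPM, and its log2 difference at P13 was -0.01 ± 0.25 (adjusted p = 0.991). Celsr1 was called in no comparison and had its highest mean, 12.4 CPM, in cones at P13.

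The 2 type I cadherins were present in all cell classes. Cdh2 (N-cadherin) was called at P30, with 34.8 and 56.3 CPM in bipolars, 9.30 and 5.39 in rods and 30.9 and 18.6 in cones, a log2 difference of 1.76 ± 0.38 (adjusted p = 0.0017). Cones lay between the other two, and the same bipolar libraries held 3987 and 6163 CPM of Müller glia markers, whose part in the value was not tested. Cdh4 (R-cadherin, for retinal) was the single member called lower at P7. It had 3.77 and 4.07 CPM in bipolars, 15.3 and 10.5 in rods and 38.2 and 26.4 in cones, a log2 difference of -2.35 ± 0.49 (adjusted p = 0.00198), and bipolars and photoreceptors overlapped at P13 and P30.

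Cdh16, named Ksp-cadherin for its place in kidney epithelium, was called lower in bipolars at P30, where rods had 16.7 and 15.9 CPM, cones 1.24 and 3.0, and bipolars 0.243 and 0. Cdh17, the liver-intestine cadherin, was called higher at P13 and P30, with 2.52 and 4.70 and then 6.87 and 2.64 CPM in bipolars and at most 0.918 CPM in photoreceptors. Cdh13 (T-cadherin, tied to the membrane by a lipid anchor) was not called in this comparison.

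Within bipolars the design also asked what changed from P7 to P30. In the fit over all 22 libraries 2 members were called higher, Cdh4 and Cdh5, and 0 lower, beside 7.95% and 4.50% of all genes. Its count was 1, 0 and 1 without replicate 1 or 2 of bipolars at P7 or replicate 2 at P30. The spread of each gene in that fit is shared with photoreceptor libraries, many of them near the floor, so the 10 libraries of the bipolar groups were also fitted alone, a choice made after seeing the data. In that fit 13 members were called higher and 1 lower (15.9% and 7.90% of all genes), 9 and 1 of them outside the clusters.

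**Figure D3:**
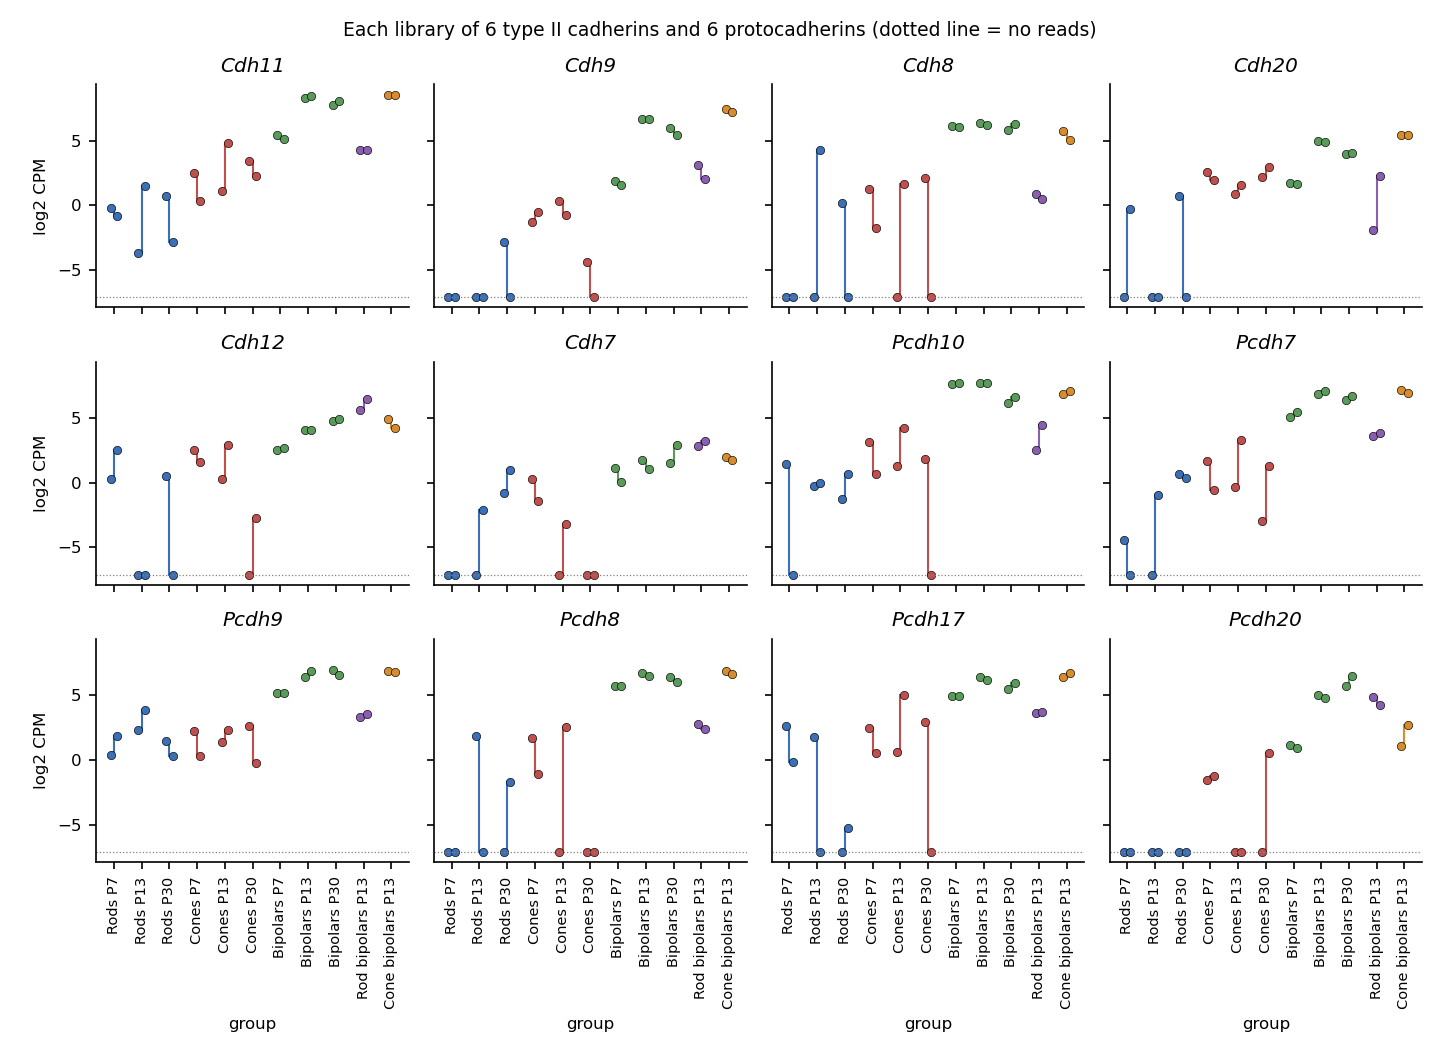
Level of 6 type II cadherins and 6 protocadherins in each library (points, 2 per group joined by a line), as log2 CPM; the dotted line marks no reads. Cdh9, Cdh11, Cdh20 and Pcdh20 sit higher in bipolars at P13 than at P7, Cdh8 and Pcdh10 are high at P7 too, and the rod bipolar points lie under the cone bipolar points except for Cdh12, Cdh7 and Pcdh20.

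The genes that rose from P7 to P30 in the 10-library fit were Cdh4, Cdh5, Cdh9, Cdh11, Cdh12, Cdh17, Pcdh7, Pcdh9 and Pcdh20, and Dchs1 fell. The log2 rise was 4.01 ± 0.33 for Cdh9 (adjusted p = 2.94e-05), 2.62 ± 0.15 for Cdh11 (3.49e-06) and 5.09 ± 0.51 for Pcdh20 (9.86e-05). Cdh12 rose by 2.22 ± 0.34, Pcdh9 by 1.57 ± 0.19 and Pcdh7 by 1.28 ± 0.18. For Cdh9 and Cdh11 the highest age was P13: mean CPM there was 30.4 and 8.33 times that at P7, and at P30 it was 0.538 and 0.736 times that at P13. Dchs1 decreased by 3.12 ± 0.57 on the log2 scale (adjusted p = 0.00286). Cdh8 and Pcdh10 were not called, and mean CPM at P30 was 0.997 times that at P7 for Cdh8 and 0.417 times for Pcdh10.

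Cdh4 rose from 3.77 and 4.07 CPM to 17.0 and 21.8, a log2 change of 2.29 ± 0.57 over 22 libraries (adjusted p = 0.0119). The log2 change of Cdh4 in bipolars minus that in photoreceptors was 2.70 ± 0.70 (adjusted p = 0.0197). This difference was called above 0 for 3 further members, Cdh5, Cdh9 and Cdh12 (the last of which fell in cones), and below 0 for 0, beside 6.86% and 4.27% of all genes. The count was 2 without replicate 1 or replicate 2 of cones at P7 or replicate 1 of bipolars at P30, and 8 without replicate 2 of cones at P30. All 4 calls of that test were lost without replicate 1 of bipolars at P7, without replicate 2 there, and without replicate 2 of bipolars at P30. Cdh5 is VE-cadherin, the adhesion protein of endothelial junctions. It went from 0.0465 and 0 CPM at P7 to 0.727 in both libraries at P13 and 7.57 and 4.99 at P30. Markers of vascular cells summed to 26.3 and 29.7, 78.5 and 91.0, and 352 and 459 CPM in the same libraries, and Müller glia markers to 173 and 167, 694 and 877, and 3987 and 6163 CPM. The rod bipolar markers Prkca, Car8 and Sebox summed to 723 and 641 CPM in bipolars at P7 and 2308 and 1903 CPM at P30. Cone bipolar markers summed to 1570 and 1491 CPM at P7 and 1102 and 948 CPM at P30. The part of other cells, or of a changed mix of bipolar classes, in the changes with age was not tested.

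Rod bipolars and cone bipolars at P13 were compared to ask which members separate the 2 classes of bipolar cell, the first fed by rods and the second by cones. The markers Prkca, Car8 and Sebox summed to 6340 and 7970 CPM in rod bipolars and 404 and 281 CPM in cone bipolars. Vsx1, Scgn and Cabp2 were higher in cone bipolars, and Grik1, also on the cone bipolar list, was not, with 234 and 242 CPM in rod bipolars and 141 and 116 in cone bipolars. In the fit over all libraries 1 member, Pcdh9, was called lower in rod bipolars and 0 higher, beside 3.17% and 1.51% of all genes. In the fit of the 10 bipolar libraries, 15 members outside the clusters were called lower and 4 higher, beside 8.12% and 3.61% of all genes. Over all libraries the count was 3 without replicate 2 of rod bipolars and 0 without replicate 2 of cone bipolars. Fitting the 4 libraries of the 2 groups alone called 7 members, all lower in rod bipolars.

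**Figure D4:**
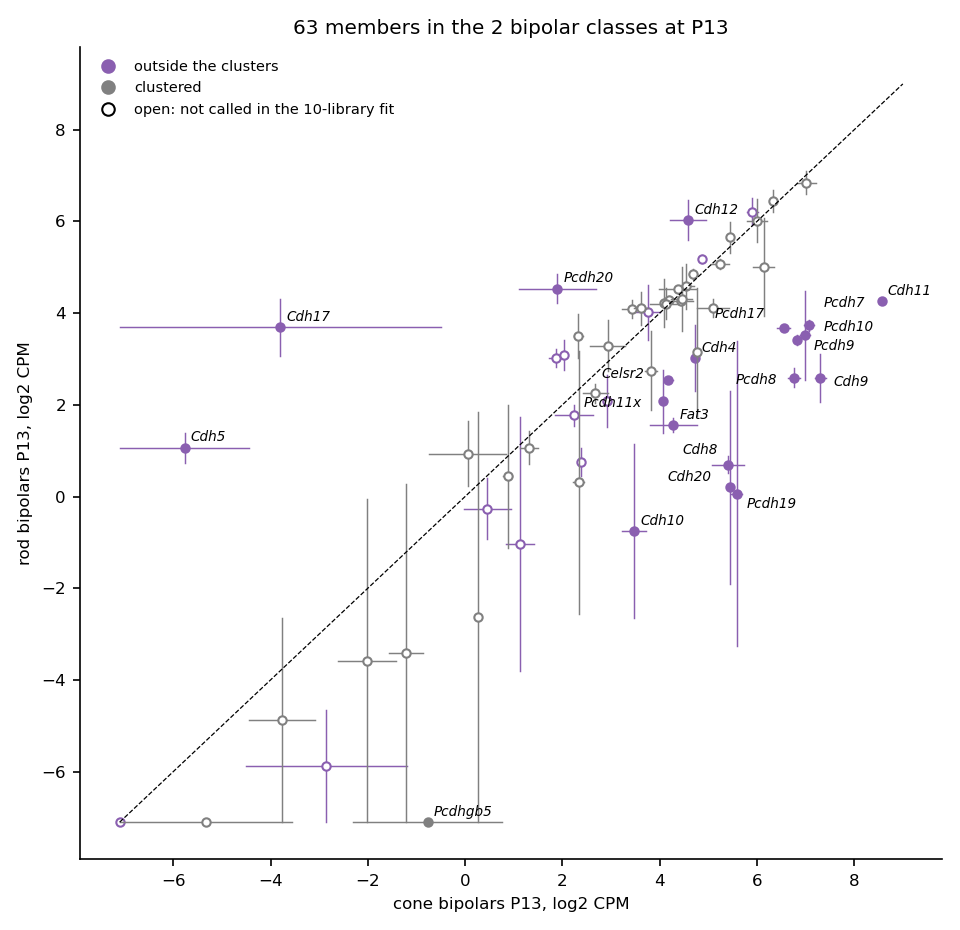
Mean log2 CPM of each of the 63 members in cone bipolars (horizontal) and rod bipolars (vertical) at P13, with lines to the 2 libraries of each group; filled points were called in the fit of the 10 bipolar libraries and the dashed line marks equal levels. A group of type II cadherins and delta-protocadherins lies under the line, Cdh12, Pcdh20, Cdh17 and Cdh5 lie above it, and of the clustered members (grey) only Pcdhgb5 was called.

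Of the 15 members lower in rod bipolars, 5 were type II cadherins. Cdh11 had 19.1 and 19.3 CPM in rod bipolars and 377 and 379 in cone bipolars, a log2 difference of -4.30 ± 0.15 (adjusted p = 4.28e-07 in the 10-library fit and 0.108 over all libraries). Cdh9 had 8.58 and 4.19 CPM against 171 and 146, with -4.72 ± 0.33 (adjusted p = 2e-05). Cdh8 had 1.84 and 1.41 CPM against 53.6 and 33.9, with -4.72 ± 0.26 (4.85e-06). For these 3 genes mean CPM was 19.7, 24.9 and 26.9 times higher in cone bipolars. Cdh20 had 0.259 and 4.94 CPM against 44.6 and 42.6, and Cdh10 had 2.20 and 0.151 against 13.2 and 9.29.

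Both delta classes held genes that were lower in rod bipolars. Pcdh7 had 12.3 and 14.4 CPM in rod bipolars and 145 and 125 in cone bipolars, with -3.34 ± 0.18 (adjusted p = 4.11e-06). Pcdh9 had 9.94 and 11.5 CPM against 117 and 110, with -3.41 ± 0.19 (5.25e-06), or -3.41 ± 0.85 (0.0271) over all libraries, where the call was lost without any 1 of the 4 libraries. Pcdh8 had 6.93 and 5.25 CPM against 119 and 99.4, with -4.17 ± 0.20 (2.5e-06). Pcdh17 had 12.4 and 13.1 CPM against 85.6 and 103. Rod bipolars did not overlap with cone bipolars for any of these.

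Pcdh10, Pcdh19 and Cdh20 differed between the 2 rod bipolar libraries. Pcdh10 had 5.86 and 22.4 CPM there against 118 and 136 in cone bipolars, and Pcdh19 had 0.0971 and 10.4 CPM against 44.1 and 52.0. Replicate 2, the higher one for Pcdh10, Pcdh19 and Cdh20, also held 146 CPM of amacrine cell markers, when replicate 1 held 22.7, and the part of these cells was not tested. Other members differed the other way, among them Cdh9, Cdh10 and Cdh17, with replicate 1 the higher. Fat3, Celsr2, Cdh4 and Pcdh11x were also called lower in rod bipolars, by 2.72 ± 0.38, 1.63 ± 0.25, 1.72 ± 0.47 and 1.99 ± 0.58 on the log2 scale as differences of levels.

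Higher in rod bipolars were Cdh12, with 48.2 and 89.1 CPM against 31.1 and 18.5 (1.45 ± 0.34, adjusted p = 0.0168), and Pcdh20, with 29.1 and 18.5 against 2.14 and 6.45 (2.64 ± 0.51, 0.00712). Cdh17 had 19.9 and 8.37 CPM in rod bipolars, and 0.701 and 0 in cone bipolars. Cdh5 had 2.62 and 1.66 CPM in rod bipolars and 0.0390 and 0 in cone bipolars, where the vascular markers summed to 36.3 and 62.9 CPM and to 22.2 and 16.4 CPM. Cdh7 had its highest group mean in rod bipolars, 8.23 CPM, and was not called against cone bipolars.

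To set genes of either direction side by side, the stretches before the RefSeq start are shown for 4 of the members called between the 2 classes: Cdh8, Cdh20 and Pcdh8, higher in cone bipolars, and Pcdh20, higher in rod bipolars. These stretches lie outside the genes as GENCODE M21 annotates them. Each is the 150 bases before the start on the gene's strand (GRCm38.p6), with CpG pairs in capitals.
Cdh8, chr8:99416472-99416621, minus strand: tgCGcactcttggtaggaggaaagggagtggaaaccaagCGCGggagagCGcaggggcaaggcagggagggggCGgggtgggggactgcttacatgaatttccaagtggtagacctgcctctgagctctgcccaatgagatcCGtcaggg
Cdh20, chr1:104768370-104768519, plus strand: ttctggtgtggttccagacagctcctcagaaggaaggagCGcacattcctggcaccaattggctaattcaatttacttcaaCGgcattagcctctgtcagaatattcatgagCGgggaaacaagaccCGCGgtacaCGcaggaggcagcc
Pcdh8, chr14:79771313-79771462, minus strand: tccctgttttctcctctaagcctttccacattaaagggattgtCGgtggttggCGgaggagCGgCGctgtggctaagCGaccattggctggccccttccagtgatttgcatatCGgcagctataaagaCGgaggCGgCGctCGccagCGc
Pcdh20, chr14:88471397-88471546, minus strand: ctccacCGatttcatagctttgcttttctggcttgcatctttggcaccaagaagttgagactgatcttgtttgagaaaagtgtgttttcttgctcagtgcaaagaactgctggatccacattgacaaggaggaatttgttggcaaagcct

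Cdh8 and Cdh20 each held 6 CpG pairs in these 150 bases and Pcdh8 held 11, and Pcdh20 held 1, beside a median of 8 over the 24 member windows and 4 over all 32851 windows of the RefSeq table. Windows of 300 bases (250 before the start and 50 after) were found for 21 of the 30 members off chromosome 18, and their median GC content was 60.7%, beside 52.7% over all windows. The 4 genes shown were picked and do not describe either direction as a whole. Of the members called higher in cone bipolars, Cdh10 had a GC content of 37.7%, below Pcdh20 at 43.7%. The others with a window had 48.7% to 76.3%. Cdh12, higher in rod bipolars, had 46.7%. On both strands of the 300-base windows 5 short motifs were searched. The letters TAATCC, known as the site of the photoreceptor factors CRX and OTX2, were in 1 of the 24 member windows, that of Cdh7, and in 7.06% of all windows. The E-box letters CAGATG were in 2 of the 24 windows and in 17.2% of all windows, and CAGGTG in 6 of the 24 and in 20.2%. Cdh7 has more than 1 of these windows, and by gene CAGGTG was in 4 of the 21 members and in 22.6% of all genes. AGGTCA, a nuclear receptor half-site, was in 2 of the 24 and in 16.3% of all windows, and TATAAA was in that of Pcdh8 alone and in 13.6% of all windows. A match is a description of these letters and not of binding.

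The 2 photoreceptor types were set against each other at P7, P13 and P30. At P7, 6 members outside the clusters were called lower in rods and 0 higher, beside 9.52% and 3.30% of all genes. At P13, 8 were lower and 2 higher (14.1% and 7.10% of all genes), and at P30, 2 were lower and 2 higher (10% and 9.98%). The count over all members at P7 went from 10 to 5, 2 and 5 without replicate 1 of rods, replicate 1 of cones or replicate 2 of cones. At P13 it went from 17 to 11 without replicate 2 of cones, and at P30 from 8 to 14 without replicate 2 of cones. Of these 10, 17 and 8 calls, 1 at each age held under all 12 other settings tried, Cdh18 at P7 and P30 and Pcdhb9 at P13. At P30 the split over all members, 3 higher and 5 lower, was 9 and 4 when plain read totals were used to scale the libraries, which moved the median of all genes from 0.14 to 0.74.

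Cdh18, a type II cadherin of the central nervous system, was the one member outside the clusters called lower in rods at all 3 ages. It had no reads in the 6 rod libraries, and 5.72 and 4.16 CPM in cones at P7, 2.04 and 2.32 at P13, and 0.921 and 3.56 at P30. Against the floor of 3 reads over both rod libraries it was at least 157-fold, 49.6-fold and 73.2-fold lower in rods at the 3 ages, and the call was lost only at P13 with array quality weights (adjusted p = 0.0947). The 6 bipolar libraries held 0.0485 to 0.912 CPM.

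Cdh9, Cdh7, Cdh16 and Pcdh20 had no reads in rods at P7 and 0.335 to 1.23 CPM in cones, and were called lower in rods there. Pcdh7 was called lower in rods at P7 and P13, with 0 to 0.503 CPM in the 4 rod libraries and 0.667 to 9.58 in the 4 cone libraries. Cdh13 at P13 had 0 and 0.0755 CPM in rods and 12.6 and 7.85 in cones (-8.66 ± 1.94, adjusted p = 0.00419). Cdh12, Cdh20 and Cdh22 had no reads in rods at P13 and 1.18 to 7.70 CPM in cones, at least 100.95-fold, 53.9-fold and 61.1-fold lower in rods. Cdh11 was also called lower at P13, where its 2 cone libraries were 2.16 and 29.1 CPM and its rod libraries 0.0703 and 2.87. Pcdh19 and Celsr2 were called higher in rods at P13, Pcdh19 with 4.11 and 8.43 CPM against no reads in cones, and Celsr2 with 5.13 and 2.26 against 0.765 and 1.53.

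From P7 to P30 rods gained Cdh16, which had no reads in 2 libraries at P7, 1.48 and 0 CPM at P13, and 16.7 and 15.9 CPM at P30, at least 518-fold more. That call held under all 12 other settings. Celsr3 rose from 38.5 and 52.6 CPM to 108 and 83.3 (1.07 ± 0.29, adjusted p = 0.0125), and Cdh7 and Pcdh7 rose from 0 to 0.0401 CPM to 0.566 to 1.99. Cdh2 fell from 33.3 and 16.1 CPM to 9.30 and 5.39 (-1.71 ± 0.44, adjusted p = 0.0101), and lost the call without replicate 1 of rods at P7 or replicate 2 at P30. In all 4 members outside the clusters were called higher and 1 lower in rods, beside 10.7% and 9.15% of all genes. With plain read totals the split over all members was 4 and 2 in place of 5 and 1.

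In cones 6 members outside the clusters were called lower at P30 than at P7 and 0 higher, beside 7.28% and 3.19% of all genes. Cdh13 fell from 36.1 and 35.9 CPM to 12.6 and 7.85 at P13 and 0 and 3.80 at P30 (-7.76 ± 1.94, adjusted p = 0.0168). Cdh12 fell from 5.89 and 2.97 CPM to 0 and 0.147, and Cdh7, Cdh9, Pcdh11x and Pcdh19 from 0.360 to 3.28 CPM to at most 0.0400. These calls rest on single libraries at P7 and at P30. Of the 11 calls over all members, 0 held under all other settings tried. Few or none of them were left without replicate 1 or replicate 2 of cones at P7, or without replicate 1 of cones at P30. The bipolar markers summed to 492 CPM in replicate 1 at P7 and to 250.3 CPM in replicate 2, and the part of bipolar RNA was not tested.

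The change from P7 to P30 differed between rods and cones for 5 members outside the clusters. The log2 change in rods minus that in cones was above 0 for 4 (Cdh7, Cdh9, Cdh16 and Celsr3) and below 0 for 1 (Cdh2), beside 6.04% and 4.57% of all genes. Celsr3 had 82.6 and 57.6 CPM in cones at P7 and 31.3 and 52.5 at P30, so that rods were the higher at P30 (1.23 ± 0.29, adjusted p = 0.00579), and the difference of the changes was 1.84 ± 0.41 (adjusted p = 0.00999). Cdh2 in cones had 21.7 and 17.2 CPM at P7 and 30.9 and 18.6 at P30, and at P30 rods were lower by 1.76 ± 0.44 as a log2 difference of levels, with the difference of changes at -2.02 ± 0.62 (adjusted p = 0.0495). The call for Cdh2 was lost in 10 of 16 other settings. Over all members the count was 7, and it was 1 and 2 without replicate 1 or 2 of cones at P7, 3 without replicate 1 of rods at P30 and 14 without replicate 2 of cones at P30. With plain read totals the split was 11 higher and 0 lower, in place of 6 and 1.

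The clustered protocadherins were described by the summed level of each cluster's genes in the table. These were 2 alpha, 20 beta and 10 gamma genes, when GENCODE M21 holds 13, 22 and 21 coding genes. The sums therefore cover part of each cluster, the smallest part for alpha. The beta cluster, whose genes each consist of a single long exon, was highest in bipolars. It summed to 523 and 507 CPM in bipolars at P7, 637 and 601 at P13, and 678 and 670 at P30. Cones held 205 and 222, 206 and 170, and 148 and 168 CPM at the 3 ages, and rods 116 and 124, 131 and 89.5, and 75.2 and 80.3. The 3 cell types did not overlap at any age, with bipolars above cones and cones above rods. Rod bipolars had 516 and 726 CPM and cone bipolars 638 and 624, which overlapped.

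**Figure D5:**
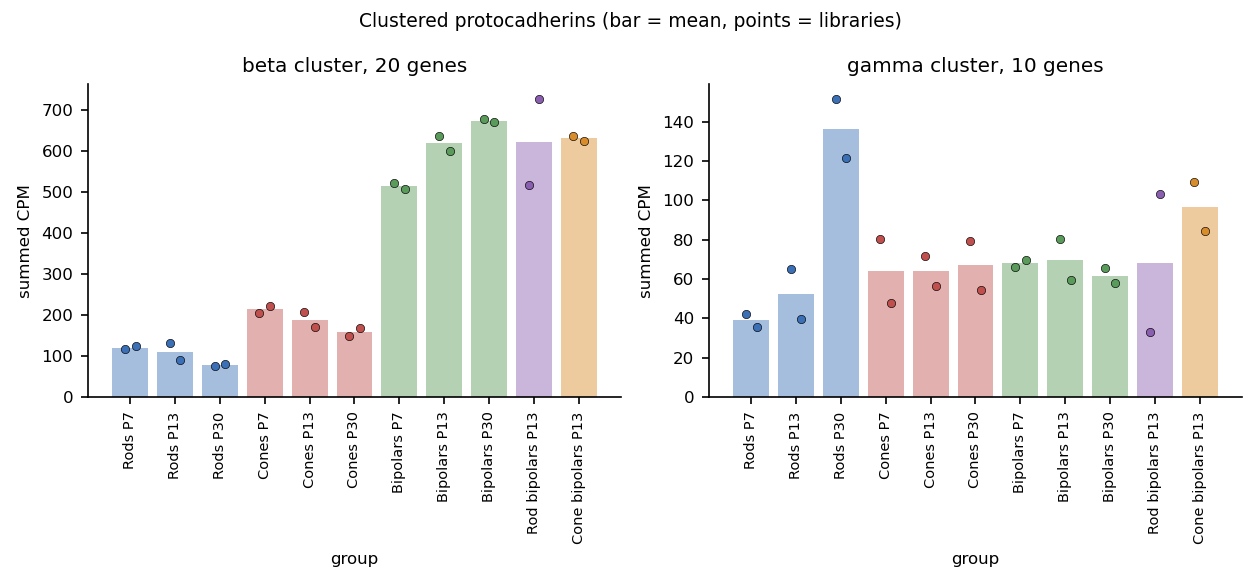
Summed CPM of the 20 beta and 10 gamma cluster members in each group (bars are means, points the 2 libraries), on axes that start at 0. The beta sum stands at 507 to 726 in the bipolar groups and at most 222 in photoreceptors, and the gamma sum is highest in rods at P30, at 151 and 121.

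Against photoreceptors, 5 clustered members in bipolars were called higher at P7, 12 at P13 and 12 at P30, all of them in the beta cluster, and 0, 0 and 1 lower, the last being Pcdhga1. Of all genes 11.6%, 20.6% and 22.6% were called higher, and the count of 5 among the 31 clustered members tested at P7 lay near that share. The median log2 difference of the 20 beta genes was 2.13, 4.95 and 4.01 at the 3 ages. That of the 9 gamma genes tested was 0.41, 0.73 and -0.19. Against the medians over all genes given above, the beta genes stood higher and the gamma genes within 1 log2 unit.

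Pcdhb17, the beta gene with the most reads, had 114 and 124, 115 and 103, and 139 and 140 CPM in bipolars at P7, P13 and P30. Rods ran from 15.3 to 51.7 CPM and cones from 40.0 to 57.2, and the log2 difference was 1.66 ± 0.35, 1.64 ± 0.35 and 2.16 ± 0.35 (adjusted p = 0.00214, 0.00164 and 1.74e-04). Pcdhb20 ran from 60.2 to 86.8 CPM in bipolars and from 8.20 to 34.7 in photoreceptors. Pcdhb9 rose in bipolars from 31.5 and 35.2 CPM at P7 to 65.1 and 94.0 at P30 (1.23 ± 0.20, adjusted p = 0.00172 in the 10-library fit), when rods and cones had at most 10.8 CPM at any age. Pcdhb3, Pcdhb6 and Pcdhb13 also rose in that fit, and 0 clustered members fell. With Pcdhb9 these were 4 of the 31 clustered members tested, near the 15.9% of all genes called higher there, when 7.90% were called lower.

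Pcdhb7 and Pcdhb3 were called in 5 comparisons each, the most of any clustered member. A further 8 were called in 3, among them Pcdhb9, Pcdhac2 and Pcdhga6, the ones with the largest called differences. Pcdhb7 ran from 18.7 to 32.9 CPM in bipolars. In cones it had 6.43 and 4.25 CPM at P7, 4.61 and 4.56 at P13 and no reads at P30, and in rods at most 1.90 CPM. Pcdhb3 had 10.8 to 29.4 CPM in bipolars and at most 7.73 CPM in photoreceptors. All 20 beta genes had reads in each of the 10 bipolar-group libraries, and 12 to 20 of them had reads in the photoreceptor libraries.

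Between rods and cones 4 clustered members were lower and 0 higher in rods at P7, 6 and 1 at P13, and 3 and 1 at P30. Of all genes 9.52%, 14.1% and 10% were called lower, so that the counts among the 31 tested lay near the share over all genes. Pcdhac2, 1 of 2 alpha cluster genes in the table, had no reads in the 6 rod libraries and 0.580 to 3.95 CPM in cones, and was called lower in rods at each age. Against the floor it was at least 98.1-fold, 39.3-fold and 46.5-fold lower. The sum of the 2 alpha genes in the table was at most 4.94 CPM in any library. From P7 to P30, 5 clustered members were called lower in cones (Pcdha8, Pcdhb7, Pcdhb16, Pcdhb21 and Pcdhga6), beside 7.28% of all genes. In rods 1 was called higher, beside 10.7% of all genes. The change in rods minus that in cones was called above 0 for 2 of the 31 tested, Pcdhb21 and Pcdhga6, near the 6.04% of all genes.

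The gamma cluster had another pattern. The sum of its 10 genes in the table was 42.1 and 35.7 CPM in rods at P7, 65.2 and 39.6 at P13 and 151 and 121 at P30. Cones stayed between 47.8 and 80.3 CPM and bipolars between 58.1 and 80.2. The 2 rod libraries at P30 were above all others, and rod bipolars were split, at 33.1 and 103 CPM. Pcdhgc4, the gamma gene with the most reads, had 30.3 and 18.3, 41.1 and 20.6, and 65.5 and 66.7 CPM in rods at the 3 ages and was called in no comparison. The one gamma gene called from P7 to P30 in rods was Pcdhga12, with 0.822 and 2.06, 4.92 and 3.72, and 10.8 and 12.2 CPM (3.13 ± 0.79, adjusted p = 0.00848). Gamma and alpha genes share their last exons, and 27.8% to 66.8% of their exon length in GENCODE M21 overlaps another coding gene, against 0% to 9.67% for beta genes. How reads of shared exons were counted is not given in the sources used here, so single alpha and gamma levels are uncertain. In the 10-library fit 1 of the 31 clustered members tested was called lower in rod than in cone bipolars and 0 higher, beside 8.12% and 3.61% of all genes. It was Pcdhgb5, with no reads in rod bipolars and 0.195 and 1.70 CPM in cone bipolars.

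The proteins that act with cadherins were followed in a list of 27 genes (catenins, WAVE regulators, proteases and modifiers), of which 25 were tested. In bipolars against photoreceptors 6 were higher and 1 lower at P7, 6 and 2 at P13, and 9 and 2 at P30, beside 11.6%, 20.6% and 22.6% of all genes called higher and 11.1%, 12.8% and 13% lower. At P13 both counts lay near those shares. Mean levels at P13 of Ctnna2 (alpha-N-catenin, the neuronal link to actin) were 185 CPM in bipolars, 11.2 in rods and 11.9 in cones, and those of Ctnna1 (alpha-E-catenin, its counterpart in epithelia) were 35.5, 343 and 508 CPM. The log2 differences were 4.01 ± 1.32 for Ctnna2 and -3.56 ± 0.24 for Ctnna1 (adjusted p = 0.0236 and 2.13e-08), and both were called in the same directions at the other ages. Ctnnd2 (delta-catenin) had 127 CPM in bipolars at P13 and 0.786 and 9.11 CPM in rods and cones (6.48 ± 1.08, adjusted p = 2.15e-04), and Fjx1, related to the kinase that modifies Fat and Dachsous, had 6.18 CPM in bipolars and 0 in photoreceptors.

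Rods against cones had 0, 0 and 2 list genes higher and 4, 4 and 3 lower at the 3 ages, near the 9.52%, 14.1% and 10% of all genes called lower. Cyfip2, a subunit of the WAVE complex, was lower in rods at each age, with group means of 27.9, 45.8 and 51.5 CPM against 340, 290 and 348 (-3.60 ± 0.24 at P7, adjusted p = 9.06e-08). Jup (plakoglobin) was lower in rods at each age too, by 3.92 ± 1.21, 4.84 ± 1.21 and 4.0 ± 1.21 as log2 differences. Smchd1, a silencer known to act on the clustered protocadherins, was lower in bipolars at P13, with 55.1 CPM against 174 in rods and 117 in cones (-1.35 ± 0.18, adjusted p = 3.37e-05). From P7 to P30, 1 list gene was higher in rods (Ctnna2), beside 10.7% of all genes. In cones 3 were lower (Ctnnd2, Fjx1 and Wasf2), beside 7.28% of all genes. In bipolars Wasf2 was higher and Afdn lower, beside 7.95% and 4.50% of all genes. Between rod and cone bipolars 1 was lower in rod bipolars (Pkp4, with means of 38.1 and 99.1 CPM), beside 3.17% of all genes. The log2 change from P7 to P30 in rods minus that in cones was called above 0 for 3 list genes, beside 6.04% of all genes. They were Ctnna2, and Ctnnd2 and Wasf2, which fell in cones. In bipolars minus photoreceptors the change was called above 0 for Ctnnd2 and Wasf2 and below 0 for Abi1 and Afdn, beside 6.86% and 4.27% of all genes.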

How the data were processed

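The deposited table gave log2 CPM for 13812 Ensembl genes in 22 libraries. The authors used STAR and edgeR with GRCm38 (mm10), per the submitters' processing notes; no source used here gives the read counter, its strand setting or the versions. mRNA was linearly amplified, per the labels' protocols, and such amplification can widen the spread of low genes. Gene IDs were matched to GENCODE M21, which named 13785 of them and left 27 unnamed, with at most 0.378% of a library's reads. The rule's prefixes cover 98 genes of that annotation.

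All libraries share a lowest log2 value of -7.10, which stands for no reads. The other values came out as whole reads (100% within 0.01), which gave totals of 14.4 to 54.4 M reads and CPM with the prior removed. The effective library sizes behind the authors' values were 0.608 to 1.23 times the totals. Zero reads in a group were bounded by 3 reads over its 2 libraries, which covers counting error only.

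Differences were tested with limma 3.58.1 in R 4.3.3 on log2 CPM as deposited, with 1 term per group over all 22 libraries, an intensity trend, and Benjamini-Hochberg adjustment over 13405 genes with log2 CPM of at least 0 in both libraries of a group. Of the 63 members 62 were tested; Pcdhga9 was not. Differences of genes near no reads depend on the prior in the authors' log2 values, so values with floors are given too. Photoreceptors in a contrast are the mean of the rod and cone terms. The 12 comparisons share groups, so they are not independent.

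The members and lists were chosen with earlier results of these data known. Members outside the clusters that were called in a comparison are named; those with a group mean of at least 8 CPM are given library by library in the groups a result turns on, and the photoreceptor libraries otherwise by their range. Of the clustered members those with the most reads and up to 5 called most often (ties by the largest called difference) are named, and up to 3 partner genes per comparison. The fit was tested on simulated data for bipolars against photoreceptors at P13 (13405 genes, 200 changed): it recovered 64% of genes changed by a log2 fold of 2 and 67% of those changed by 3, and 2.24% of its calls were false. Alternatives were plain read totals, log2(CPM + 1), no filter and a filter at log2 CPM 1, array quality weights, limma-voom on the recovered reads, the compared groups alone, a replicate block, and leaving out each library. A fit of the 10 libraries of the bipolar groups was added after seeing the data. Promoter windows came from RefSeq (GRCm38.p6).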

Additional observations from a re-analysis of the deposited data

Results flagged for a closer look

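In 11 cases the change from P7 to P30 itself differed between cell types, by the test of the difference of changes in limma. Between rods and cones, the log2 change in rods minus that in cones was 13.73 ± 2.32 (SE) for Cdh7 (adjusted p = 0.00198), which went from no reads to 0.566 and 1.99 CPM in rods and from 1.23 and 0.360 CPM to no reads in cones. It was 10.02 for Cdh16, which rose in rods, 7.0 for Cdh9, which fell in cones, 1.84 for Celsr3, which rose in rods, and -2.02 for Cdh2, which fell in rods. Of the clustered members, it was 11.64 for Pcdhb21, with cones at 2.20 and 2.72 CPM at P7 and no reads at P30, and 7.98 for Pcdhga6. Differences of 7 or more in log2 arise where a group has no reads or nearly none, and their size depends on the prior in the deposited values.

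Between bipolars and photoreceptors, the log2 change in bipolars minus that in photoreceptors was 2.70 for Cdh4, 8.10 for Cdh5, 5.36 for Cdh9 and 8.05 for Cdh12. Cdh12 was called lower with age in cones, by -6.97 ± 1.89, and its change in bipolars was 2.22 ± 1.89 over all libraries. Vascular markers rose beside Cdh5 in the bipolar libraries, from 26.3 and 29.7 CPM at P7 to 352 and 459 CPM at P30, and their part in it was not tested.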

How the results depend on the processing

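No member's called difference changed sign under any alternative, and the counts of called members moved as follows; where no cause is given, the cause was not tested. With log2(CPM + 1) the count was 5 for rods against cones at P7 (10 as reported) and 14 at P30 (8), 34 for bipolars against photoreceptors at P7 (20), 10 for rods over time (6), 9 for bipolars over time (2), 14 for rod against cone bipolars (1) and 11 for the change in bipolars against photoreceptors (4). With array quality weights it was 6 for rods against cones at P13 (17), 36 for bipolars against photoreceptors at P7, 7 for bipolars over time, 6 for rod against cone bipolars, 4 for the change in rods against cones (7) and 12 for that in bipolars against photoreceptors. With limma-voom on recovered reads it was 32, 11, 8, 12 and 7 for bipolars against photoreceptors at P7, rods over time, bipolars over time, rod against cone bipolars and the change in bipolars against photoreceptors. With only the groups compared, which leaves fewer samples, it was 7 and 3 for rods against cones at P13 and P30, 22 for bipolars against photoreceptors at P13 (34), 3, 7 and 16 for rods, cones (11) and bipolars over time, 7 for rod against cone bipolars, and 3 and 1 for the changes. With plain read totals it was 13 for rods against cones at P30, 18 for cones over time, 4 for rod against cone bipolars and 11 for the change in rods against cones; this moved the median of all genes from -0.19 to -0.97 for cones over time, from 0.18 to 0.66 and 0.13 to 0.56 for bipolars against photoreceptors at P13 and P30, and from 0.38 to 1.03 for the change in rods against cones. With the 10 bipolar libraries alone it was 14 and 20 for bipolars over time and rod against cone bipolars, and with the stricter filter 2 for the latter.

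Leaving out 1 library at a time gave 2 to 9, 11 to 23 and 8 to 14 calls for rods against cones at P7, P13 and P30, 8 to 21, 20 to 36 and 26 to 40 for bipolars against photoreceptors (35 at P30), 5 to 8, 0 to 16 and 0 to 2 for rods, cones and bipolars over time, 0 to 3 for rod against cone bipolars, and 1 to 14 and 0 to 8 for the 2 changes. Replicate numbers did not pair the libraries: over 55 pairs of groups the correlation of deviations ran from -0.14 to 0.19, with 5 over 0.1. With the replicate block the count was 2 for rod against cone bipolars and within 1.5 times of that reported in the other 11 comparisons. Like counts need not hold the same members. Of the 8 calls for rods against cones at P30 and the 6 for rods over time, 1 each held under all other settings tried. With 2 libraries a group, spread limits every test, and differences of members near no reads are the least certain.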
